A study of Homo sapiens with 36 samples.

Results

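The genes described here are 43 named targets of the transcription factor NF-kB that are known from myeloid cells. They were taken from a list of symbols with no threshold on measured values, drawn up with earlier results of these data known, and form 43 of the 35469 gene symbols that the transcript tables could be summed to. Chemokines, NF-kB subunits and the IkB inhibitors are not among them. All 43 have at least 1 transcript in the tables.

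RNA was measured in 36 libraries of MOLM-13 and MONO-MAC-6, which are established human acute myeloid leukaemia (AML) cell lines of monocytic type. Both lines carry the genotype label WT, and neither group carries an engineered allele. In each line the control cells received the solvent DMSO and the treated cells received A9, a PROTAC, which is a molecule that brings a target protein to a ubiquitin ligase so that the proteasome degrades it. The study's design text names the targets as IKK2 and NR4A1, while its title names IKK1 and NR4A1. Treatment lasted 72 h. A9 was given at 0.125 µM to MOLM-13 and at 0.25 µM to MONO-MAC-6, so a difference between the lines cannot be told apart from a difference between the doses. Each of the 4 groups has 9 libraries, and averaging those that share a first replicate number gave 3 samples per group. Nothing in the labels says that these samples came from separate cultures, so the p-values measure the spread between samples only, which may be technical.

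NF-kB dimers are held in the cytoplasm by IkB proteins. When receptors for TNF, interleukin-1 or bacterial products are engaged, the IKK kinases phosphorylate IkB, which is then destroyed, and the freed dimers bind kB sites in promoters and enhancers. In monocytes and macrophages this switches on cytokines, adhesion molecules and survival factors. It also switches on the pathway's own brakes, such as TNFAIP3 (A20), a ubiquitin-editing enzyme that shuts the signal down.

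A kB motif marks the promoters of some members, and the sequences below show where. Of the 43 members, 36 matched an entry in the RefSeq promoter table (GRCh38.p14). The 250 bases upstream of each start were searched on both strands for the kB consensus, and overlapping matches were merged. A match was found for 13 of these 36 members (36.1%), for 1828 of all 35116 promoters in the table (5.21%), and for 1715 of 27305 symbols (6.28%). The list was assembled from known NF-kB targets, so the higher share describes the list and is not a result of the treatment. The 7 members below were chosen from these 13 as follows. They were tested for an A9 effect, and their DMSO and A9 samples did not overlap in at least 1 line, as given further on. BIRC3 and LTA also hold a match and had separate groups in 1 line, but their levels were too low to be tested. Capitals mark the match, each run is 30 bases long, and each is written 5′ to 3′ on the gene's own strand.
LTB, chr6:31582492-31582521, minus strand: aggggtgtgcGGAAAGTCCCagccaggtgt
TNFAIP3, chr6:137867182-137867211, plus strand: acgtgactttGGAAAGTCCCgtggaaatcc
IRF1, chr5:132490804-132490833, minus strand: ggccagggctGGGGAATCCCgctaagtgtt
CD83, chr6:14117687-14117716, plus strand: ctgcccgccGGGGAATCCCCCgggctggcg
TNIP1, chr5:151081057-151081086, minus strand: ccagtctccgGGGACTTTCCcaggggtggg
CFLAR, chr2:201118609-201118638, plus strand: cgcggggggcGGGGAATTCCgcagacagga
MAP3K8, chr10:30433982-30434011, plus strand: ggggagacgcGGAATTTCCCagcgcggggg
LTB and TNFAIP3 carry the same 10 bases, and TNFAIP3 holds another match that starts 55 bases upstream of its start. CD83 matches on both strands in overlapping frames. Some of these windows lie over annotated exons of other transcript starts. Another promoter entry of CD83, at chr6:14117006-14117255, holds no match, and CFLAR and TNIP1 also have entries without a match. Among the 7 members that passed a test in this study, CD83 is the one with a match. The promoters of TNF, TNFAIP2, PLAUR, NINJ1, G0S2 and SLC2A6 hold none in this window, which says nothing of sites elsewhere.

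The lines expressed their myeloid markers. Of 7 myeloid genes, 6 reached a group mean of 1 TPM (transcripts per 1000000, a level corrected for transcript length) in MOLM-13, where CD14 stayed under it, and all 7 did so in MONO-MAC-6. T cell markers summed to at most 0.507 TPM in any sample, with CD3E and CD2 at 0 throughout. In MONO-MAC-6 the low epithelial, B cell and erythroid lists were lower with A9, while the T cell and fibroblast lists were not. T cell genes summed there to 0.312 to 0.465 TPM with DMSO and 0.492 to 0.507 TPM with A9. Fibroblast genes summed to 0.511 to 0.840 TPM with DMSO and 0.829 to 1.58 TPM with A9. The 3 epithelial genes summed to 13.9 to 16.3 TPM with DMSO and 8.00 to 9.29 TPM with A9. Of these, KRT18 fell by 0.78 on the log2 scale (limma adjusted p = 0.0256). The 4 B cell genes summed to 9.33 to 10.7 TPM with DMSO and at most 6.78 TPM with A9, with MS4A1 at 0. The 3 erythroid genes summed to 5.18 to 8.66 TPM and 2.27 to 4.55 TPM, with HBB at 0, and no B cell or erythroid gene was called in that line. For the difference between the lines CD79B was called (-0.79, limma adjusted p = 0.0388), a gene under 1 TPM in MOLM-13. In MOLM-13 the epithelial genes summed to 5.88 to 6.08 TPM with DMSO and 3.50 to 3.77 TPM with A9, none called. Fibroblast genes summed to at most 1.58 TPM in any sample. The summed level of 12 monocytic maturation genes was higher with A9, though not every gene moved, and a sum weighs abundant genes most. It was 674 to 713 TPM in the DMSO samples of MOLM-13 and 1293 to 1393 TPM with A9. In MONO-MAC-6 it was 8246 to 9987 TPM against 17259 to 18567 TPM. In MOLM-13, 3 of the 9 tested genes were called higher (LYZ, S100A8 and S100A9), beside 0.111% of all genes. In MONO-MAC-6 these were 6 of 10 (those 3 with CD14, CD68 and MNDA), beside 2.56% of all genes. The list was drawn up with earlier results of these data known. None was called lower. In MOLM-13, ITGAM had a log2 fold change of -0.40, CST3 of 0.099 and FCGR1A of 0.049, while CD14, FCN1 and VCAN stayed under 1 TPM. In MONO-MAC-6, ITGAM was at 0.020 and CST3 at 0.077. The part of these shifts in the values of the NF-kB targets was not tested. In bulk RNA, fewer cells of a type and less RNA per cell cannot be told apart.

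Some samples stood apart over the whole transcriptome. The first DMSO sample of MONO-MAC-6 was the lowest of the 6 samples for 64.3% of all tested genes and for 21 of the 31 tested members. In MOLM-13, the third A9 sample was the lowest for 54.2% of all genes and for 18 of 27 members, and the first DMSO sample was the highest for 47.6% and for 11. Over all genes, MOLM-13 had a median log2 fold change of -0.046, and MONO-MAC-6 one of 0.16. For the called members of MONO-MAC-6, changes are therefore also given relative to that shift.

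In MOLM-13, no member passed the test. A gene was tested if its mean was at least 1 TPM in a group, which 27 of the 43 members reached. The test was limma on log2(TPM + 1), with an adjusted p under 0.05 over all genes as the call. It called 0 of the 27, against 0.111% of all genes higher and 0.0429% lower. At an unadjusted p under 0.05, 0 members were higher and 6 were lower (TNF, LTB, IRF1, CD83, TNFAIP3 and CD44), where 4.74% of all genes were higher and 3.31% lower. The 3 A9 samples lay above all DMSO samples for 1 member and below them for 7, against 8.71% and 6.54% of all genes. The median log2 fold change of the 27 was -0.098, with 20 below 0, as were 61.1% of all genes.

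In MONO-MAC-6, PLAUR, NINJ1, TNFAIP2 and SLC2A6 rose and G0S2 fell with A9. These were 4 and 1 of 31 tested members, against 2.56% of all genes called higher and 0.880% called lower. The A9 samples lay above all DMSO samples for 14 members and below them for 1, where 27.4% and 10.8% of all genes did so. The median log2 fold change of the 31 members was 0.19, next to the 0.16 of all genes, and 17 of the 31 lay above that median. Above 0 were 24 of the 31, and 70.6% of all genes.

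These 5 calls depended on single samples. Without the first DMSO sample, 15 members were called, beside 25.2% of all genes. Without the third DMSO sample only PLAUR was called, and without the second DMSO sample or any 1 A9 sample the count was 0. After median-ratio scaling of the TPM, CFLAR, SLC2A6 and G0S2 were called (2 higher, 1 lower), beside 4.56% of all genes. PLAUR (limma adjusted p = 0.0924), NINJ1 (0.0743) and TNFAIP2 (0.0512) were then not called.

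The A9 effect differed between the lines for 5 of the 26 members tested in both. TNF, PLAUR, NINJ1, CD83 and TNFAIP2 had a more positive effect in MONO-MAC-6, beside 1.31% of the genes tested in both lines, and 0 members a more negative one, beside 0.961%. Over all genes tested for the difference, 1.97% were more positive and 1.11% more negative. There, SLC2A6 and G0S2 passed as well, which entered through MONO-MAC-6 alone because MOLM-13 hardly expresses them, so their difference only restates the MONO-MAC-6 change. The median difference over the 32 members so tested was 0.40 on the log2 scale, and over all genes 0.19. Of the 26 members tested in both lines, 17 had a log2 fold change below 0 in MOLM-13 and above 0 in MONO-MAC-6, 4 were above 0 in both, 3 below 0 in both, and 2 the other way round. Of all genes tested in both lines, 46.8% had the first pattern, 24.4% were above 0 in both, 14.6% below 0 in both, and 14.2% the other way round. The differences of TNF, PLAUR and NINJ1 passed however the 12 samples were left out singly. Those of CD83 and TNFAIP2 did not: only the first 3 of the 5 passed without the first or the third A9 sample or any 1 DMSO sample of MOLM-13, or without the second or the third A9 sample of MONO-MAC-6. With median-ratio scaling, the differences of TNF (adjusted p = 0.0617), NINJ1 (0.0821), PLAUR (0.148) and TNFAIP2 (0.232) no longer passed, while that of CD83 did and that of TNFAIP3 joined it.

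**Figure D1:**
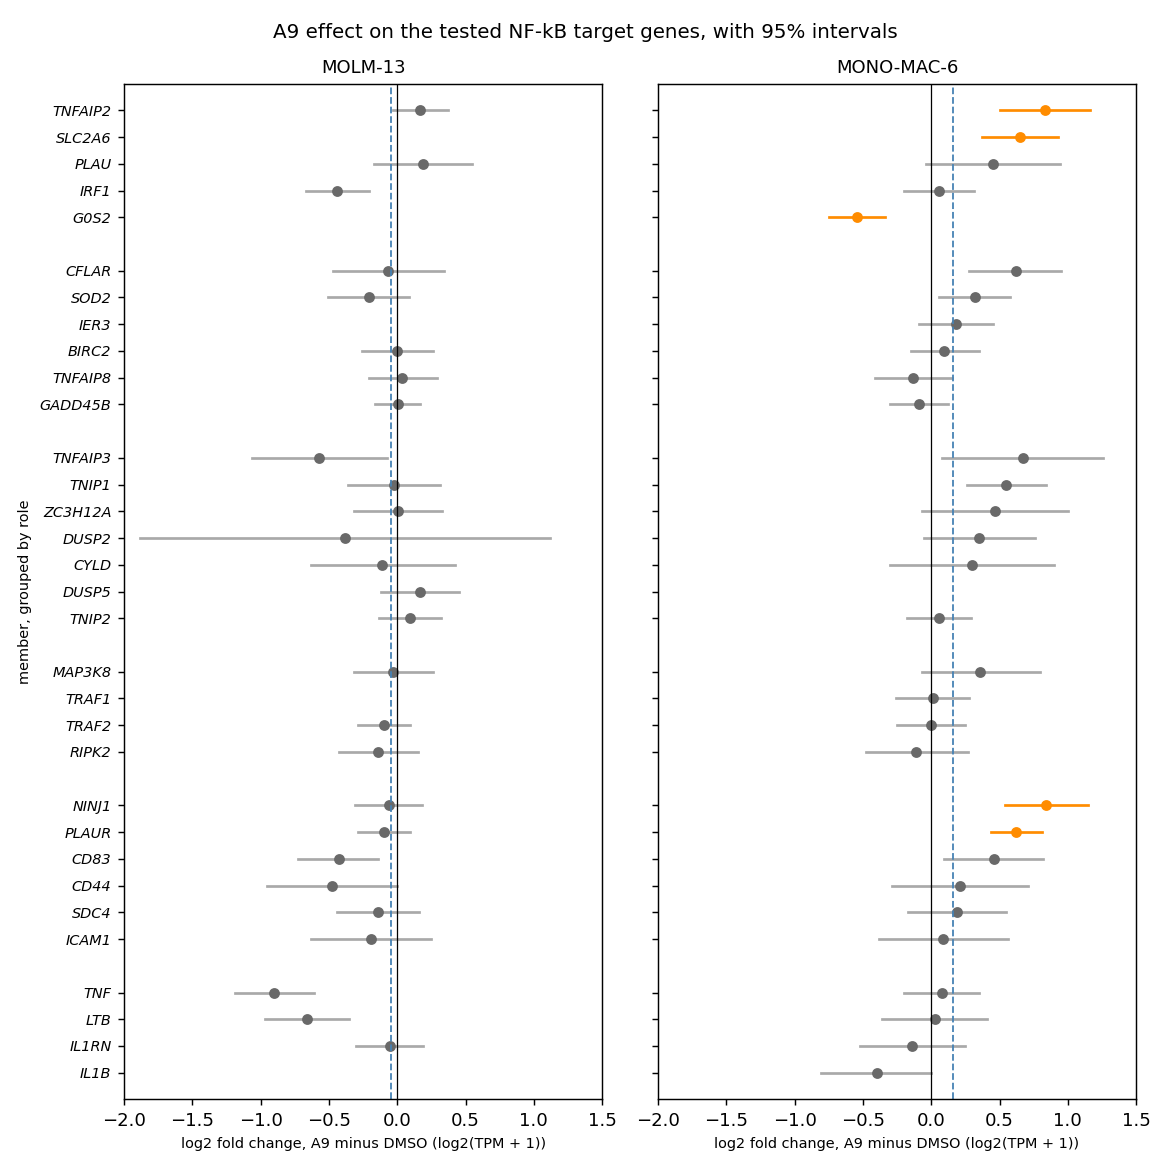
Log2 fold change (A9 minus DMSO, on log2(TPM + 1)) with its 95% interval for each tested member, grouped by role, in MOLM-13 on the left and MONO-MAC-6 on the right. Orange marks an adjusted p under 0.05, grey all others, and the dashed line the median of all genes (-0.046 and 0.16). TNF and LTB lie furthest to the left in MOLM-13, and the 5 called members are all in MONO-MAC-6.

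Among the ligands and cytokines, TNF and LTB were lower with A9 in MOLM-13, without passing the test, and near their control levels in MONO-MAC-6. TNF (ENSG00000232810, chr6:31575567-31578336, plus strand) encodes the inflammatory cytokine that both activates NF-kB and is induced by it. In MOLM-13 its level was 9.48, 10.7 and 11.9 TPM in the DMSO samples and 5.50, 4.88 and 5.36 TPM with A9. Every A9 sample lay below every DMSO sample, at 0.491 times the mean control level. The log2 fold change was -0.90 (SE 0.12, 95% interval -1.19 to -0.61, limma adjusted p = 0.0639).

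In MONO-MAC-6, TNF was at 6.23, 6.96 and 6.04 TPM with DMSO and at 6.76, 6.87 and 6.80 TPM with A9. These groups overlapped, with a log2 change of 0.078 (SE 0.11, 95% interval -0.20 to 0.35). Median-ratio scaling turned that small value to -0.063. The difference between the lines was 0.98 (SE 0.14, limma adjusted p = 0.00501).

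TNF lies in the MHC region, where the reference holds several haplotypes, and its reads were spread over 8 transcripts, 7 of them on other haplotypes than the primary assembly. The primary copy held from 1.75% to 60.3% of the summed TNF level, depending on the sample. In MONO-MAC-6 the primary copy alone would read 0.109, 0.181 and 0.154 TPM with DMSO and 2.14, 0.191 and 2.09 TPM with A9, where the sums hardly moved. Counted from the primary copy only, MOLM-13 gave -1.46 on the log2 scale and MONO-MAC-6 0.98, and their difference of 2.43 missed the threshold (adjusted p = 0.0628). All values here are sums over the copies.

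**Figure D2:**
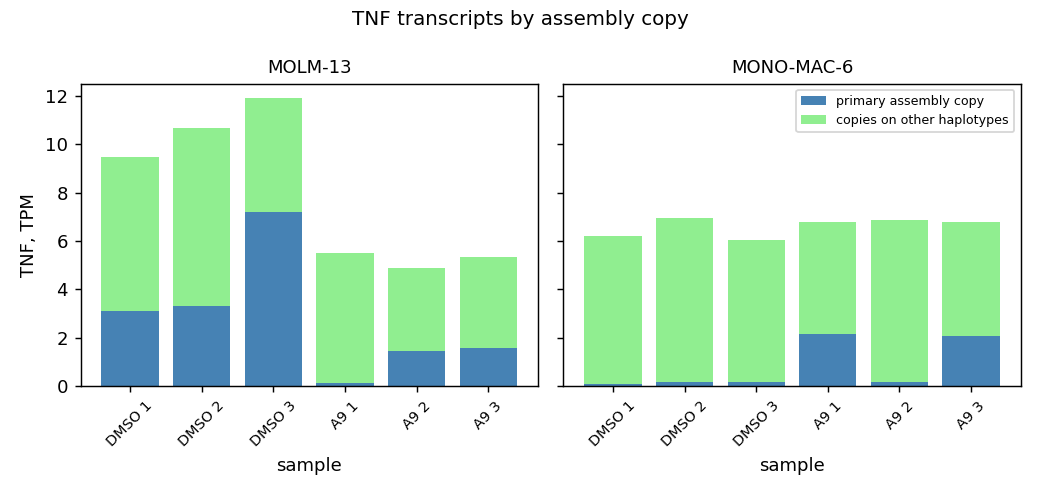
TNF level in TPM for each sample (bars from 0), split into the transcript on the primary assembly (blue) and the copies on other haplotypes (green), for MOLM-13 on the left and MONO-MAC-6 on the right. The total height separates DMSO from A9 in MOLM-13, while the blue share varies between samples. In MONO-MAC-6 the blue part is plain in 2 of the 3 A9 samples (2.14 and 2.09 TPM) and at most 0.191 TPM in the others.

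LTB (chr6:31580525-31582522, minus strand) encodes lymphotoxin beta, the membrane anchor of a TNF family ligand that signals through the alternative NF-kB pathway. Its promoter holds the kB match printed first above. In MOLM-13 the mean was 10.6 TPM with DMSO (SD 1.61, n = 3) and 6.30 TPM with A9 (SD 0.285, n = 3), with no overlap. Its log2 fold change was -0.66 (SE 0.13, limma adjusted p = 0.165). MONO-MAC-6 had 3.70 TPM with DMSO and 3.76 TPM with A9, a log2 change of 0.027 whose sign turned under some alternatives. The difference between the lines, 0.69 (SE 0.20), did not pass (limma adjusted p = 0.111).

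The interleukin-1 genes showed no called change. IL1RN, the natural blocker of the interleukin-1 receptor, was at 7.43 to 8.63 TPM in MOLM-13 and 13.0 to 18.8 TPM in MONO-MAC-6, and its DMSO and A9 samples overlapped in both lines. IL1B, the secreted cytokine itself, was tested in MONO-MAC-6 alone, at 2.84, 4.11 and 3.89 TPM with DMSO and 1.99, 2.59 and 2.86 TPM with A9. Its log2 fold change was -0.40 (limma adjusted p = 0.239), and the groups overlapped by a narrow margin. In MOLM-13 its samples lay between 0.183 and 0.321 TPM. IL1A, IL6, EBI3 and LTA stayed under 1 TPM in every sample of both lines, at up to 0.141, 0.0327, 0.107 and 0.420 TPM. LTA, the ligand encoded beside TNF, was at 0.112 to 0.192 TPM with DMSO and 0.0147 to 0.0810 TPM with A9 in MOLM-13. It was under the filter, and without a filter its limma adjusted p was 0.614.

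Of the 10 surface and adhesion proteins, 6 were tested in each line. In MONO-MAC-6, 2 rose (PLAUR and NINJ1), and 5 of the 6 lay above the 0.16 median of all genes. The first DMSO sample of that line was the lowest sample for PLAUR, CD83, CD44, ICAM1 and SDC4, but not for NINJ1. In MOLM-13 all 6 lay below the -0.046 median of all genes, with none called.

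PLAUR (ENSG00000011422, chr19:43646095-43670547, minus strand) encodes the urokinase receptor, which focuses plasmin formation on the surface of monocytes. In MONO-MAC-6 its level was 59.6, 60.4 and 62.6 TPM with DMSO and 90.9, 99.2 and 92.9 TPM with A9. The groups stood well apart, at 1.55 times the control mean. The log2 fold change was 0.62 (SE 0.076, 95% interval 0.44 to 0.81, limma adjusted p = 0.0112), or 0.46 above the median of all genes. In MOLM-13 it was at 27.9, 27.9 and 30.4 TPM with DMSO and 27.7, 26.1 and 26.5 TPM with A9. That is a log2 change of -0.098 (limma adjusted p = 0.864). The difference between the lines was 0.72 (SE 0.091, limma adjusted p = 0.00175). One protein-coding transcript of 1548 bases held 65.4% of the gene's level in MONO-MAC-6 with DMSO and 66.1% with A9, so the makeup by transcript was similar.

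NINJ1 (ENSG00000131669, chr9:93121489-93134288, minus strand) encodes ninjurin 1, a membrane protein that ruptures the plasma membrane of dying cells. In MONO-MAC-6 its level was 11.6, 10.4 and 10.9 TPM with DMSO and 18.1, 23.0 and 20.5 TPM with A9. All A9 samples exceeded all DMSO samples, at 1.87 times the control mean. The log2 fold change was 0.84 (SE 0.13, 95% interval 0.54 to 1.15, limma adjusted p = 0.0229), or 0.68 above the median of all genes. In MOLM-13 the samples were at 12.2, 10.9 and 11.9 TPM with DMSO and 10.7, 11.9 and 10.7 TPM with A9, which overlap. The control levels of the lines were alike, and the A9 effect differed between them by 0.90 (SE 0.15, limma adjusted p = 0.00801).

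CD83 (ENSG00000112149, chr6:14117256-14136918, plus strand) is a surface protein of activated dendritic cells and monocytes. In MOLM-13 it was at 5.23, 5.10 and 5.03 TPM with DMSO and 3.71, 3.96 and 2.98 TPM with A9. The MONO-MAC-6 samples were at 8.60, 11.5 and 11.3 TPM with DMSO and 14.0, 16.4 and 13.7 TPM with A9. The groups were separate in both lines, in opposite directions. Neither log2 fold change passed alone, at -0.43 (SE 0.12, limma adjusted p = 0.344) and 0.46 (SE 0.15, limma adjusted p = 0.166). Their difference did, at 0.89 (SE 0.19, limma adjusted p = 0.0285). It passed in 4 of the 12 leave-one-out fits, and the adjusted p there ranged from 0.0216 to 0.0893.

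The other tested surface proteins were CD44, ICAM1 and SDC4. CD44, the hyaluronan receptor, was at 78.0, 60.3 and 47.7 TPM with DMSO and 44.3, 50.1 and 36.8 TPM with A9 in MOLM-13. The third DMSO sample lay below the second A9 sample, and the log2 fold change was -0.48 (limma adjusted p = 0.617). In MONO-MAC-6 CD44 was lower, at a mean of 15.0 TPM with DMSO and 17.2 TPM with A9. ICAM1, an adhesion ligand of leukocyte integrins, and the proteoglycan SDC4 had log2 fold changes of -0.19 and -0.14 in MOLM-13 and of 0.088 and 0.19 in MONO-MAC-6, all with overlapping groups. VCAM1, CD69, CCR7 and CD40 were not tested, at up to 0.00751, 0.0361, 0.170 and 0.567 TPM. CCR7, a homing receptor, was at 0.146 to 0.170 TPM with DMSO and 0.0286 to 0.0786 TPM with A9 in MOLM-13, with a limma adjusted p of 0.464 without the filter.

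**Figure D3:**
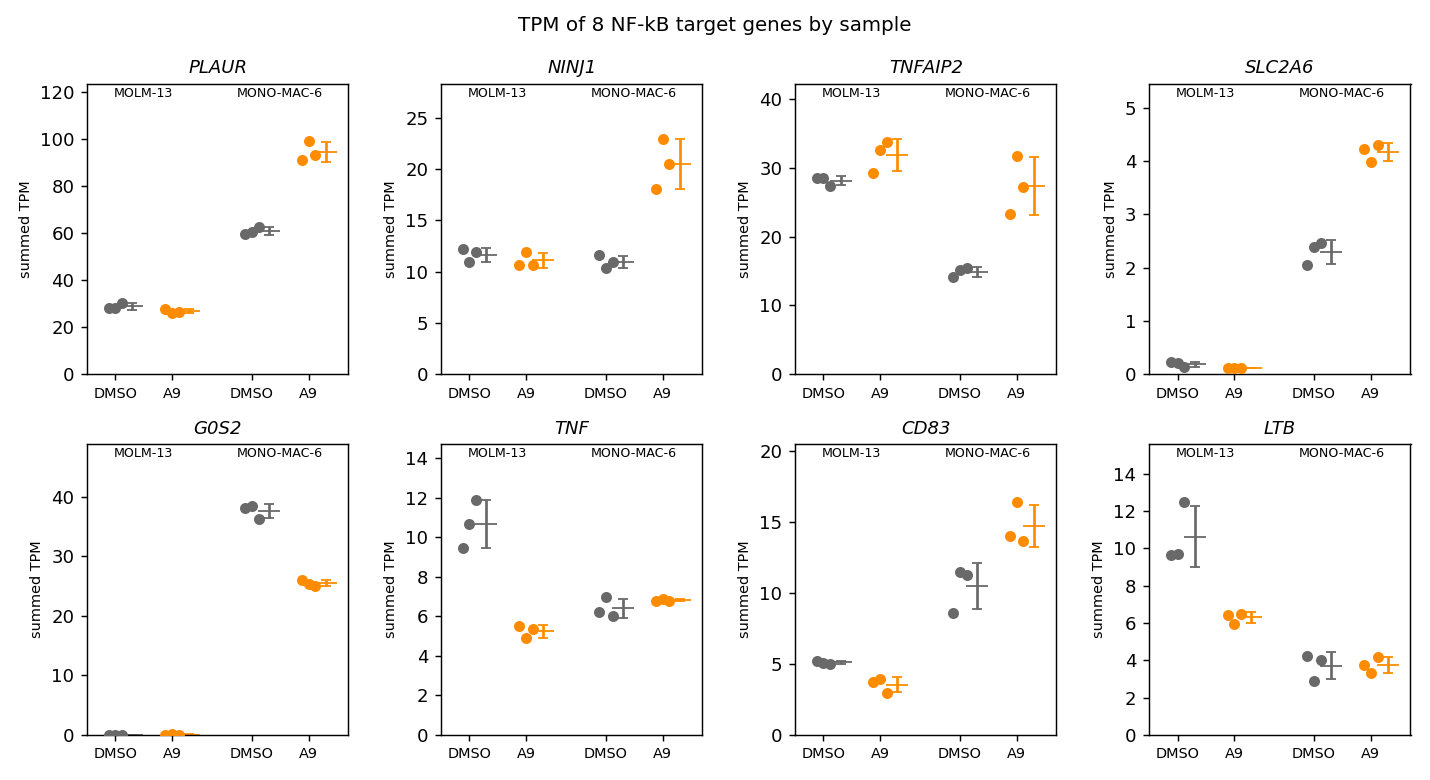
TPM summed per gene (vertical axis from 0, linear) for the 7 members that passed a test and LTB, in DMSO (grey) and A9 (orange) samples of MOLM-13 and MONO-MAC-6. Each point is 1 sample, and the bar beside it gives the mean and SD of 3 samples. PLAUR, NINJ1, TNFAIP2 and SLC2A6 sit higher and G0S2 lower with A9 in MONO-MAC-6, TNF and LTB sit lower in MOLM-13, and CD83 sits lower with A9 in MOLM-13 and higher in MONO-MAC-6.

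The signalling adaptors and kinases had no called member. TRAF2, an adaptor that recruits ubiquitin ligases to TNF receptors, was at a mean of 24.5 TPM with DMSO and 22.8 TPM with A9 in MOLM-13, without overlap and with a log2 change of -0.10 (limma adjusted p = 0.864). MAP3K8 (TPL2), the kinase that links NF-kB signalling to the ERK pathway, was at 6.83 TPM with DMSO and 9.04 TPM with A9 in MONO-MAC-6. Its samples did not overlap, at a log2 change of 0.36 (SE 0.18, limma adjusted p = 0.302). The first DMSO sample was the lowest, at 5.33 TPM beside 7.67 and 7.48 TPM in the others. RIPK2, the kinase below the NOD receptors, had overlapping groups in both lines, with log2 changes of -0.14 and -0.11. TRAF1, an adaptor that is itself a common NF-kB target, was tested in MONO-MAC-6 alone, at a mean of 1.28 TPM with DMSO and 1.30 TPM with A9.

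The brakes on the pathway had no called member either. In MONO-MAC-6 the 6 tested brakes had a median log2 fold change of 0.41, with 5 above the 0.16 of all genes. The first DMSO sample, lowest for 64.3% of all tested genes, was also the lowest for TNFAIP3, TNIP1, TNIP2, ZC3H12A and CYLD, but not for DUSP2. Its part in that median was not tested. TNFAIP3 (A20) was at a mean of 21.2 TPM with DMSO (SD 6.82, n = 3) and 33.0 TPM with A9 (SD 0.962, n = 3) in MONO-MAC-6. The wide control spread came from that first DMSO sample at 13.3 TPM, beside 24.5 and 25.6 TPM in the others. The log2 fold change was 0.67 (SE 0.24, limma adjusted p = 0.200). In MOLM-13 TNFAIP3 was at 6.96 TPM with DMSO and 4.35 TPM with A9, a log2 change of -0.57 (SE 0.21, limma adjusted p = 0.512), again without overlap. The difference between the lines was the widest of any member at 1.24, but its SE was 0.34 (limma adjusted p = 0.0895).

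TNIP1, the A20-binding partner that helps A20 reach ubiquitin chains, was at 33.6 TPM with DMSO and 49.5 TPM with A9 in MONO-MAC-6. Its log2 fold change was 0.55 (SE 0.12) and its limma adjusted p was 0.0694, just outside the threshold. ZC3H12A (Regnase-1), a nuclease that degrades cytokine mRNAs, was at 7.85 TPM with DMSO and 10.9 TPM with A9, a log2 change of 0.47 (limma adjusted p = 0.286). TNIP2 and CYLD, a deubiquitinase, had overlapping groups in both lines. The MAP kinase phosphatase DUSP5 was tested in MOLM-13 alone, at means of 2.94 TPM with DMSO and 3.44 TPM with A9, again with overlap.

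DUSP2, another MAP kinase phosphatase, varied widely between repeat libraries of the same sample. In MOLM-13 the 3 repeat libraries of the second DMSO sample gave 9.75, 2.15 and 0.928 TPM, while those of the third A9 sample gave 1.63, 1.06 and 1.14 TPM. In MONO-MAC-6 the repeats of the first DMSO sample gave 5.56, 17.4 and 16.7 TPM. The spread within 1 sample was thus as wide as that between samples, and the 95% interval of its log2 fold change in MOLM-13 ran from -1.88 to 1.12.

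Survival and stress genes held the most abundant members, and none was called. TNFAIP8, an apoptosis regulator, was at 109 to 141 TPM in MONO-MAC-6. GADD45B, a stress-response protein, was at 76.8 to 85.4 TPM in MOLM-13, where its log2 fold change was 0.0077 (SE 0.069, 95% interval -0.16 to 0.17). Both had overlapping groups in each line.

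CFLAR (c-FLIP), which keeps caspase-8 from starting death-receptor apoptosis, was at 37.7 TPM with DMSO (SD 6.77, n = 3) and 57.8 TPM with A9 (SD 1.19, n = 3) in MONO-MAC-6. Its log2 fold change was 0.62 (SE 0.14, limma adjusted p = 0.0760). In MOLM-13 it was at 19.8 and 18.9 TPM, with overlap. SOD2, the mitochondrial superoxide dismutase, was at 52.3 TPM with DMSO and 65.4 TPM with A9 in MONO-MAC-6, a log2 change of 0.32 (limma adjusted p = 0.178). The first DMSO sample of MONO-MAC-6 was the lowest for CFLAR, at 31.0 TPM beside 37.8 and 44.5 TPM. It was also the lowest for SOD2, at 45.4 TPM beside 54.4 and 57.3 TPM. IER3 and BIRC2, an early stress-response protein and a cellular inhibitor of apoptosis, also had separate groups there, with log2 fold changes of 0.18 and 0.097. That of BIRC2 turned to -0.051 with median-ratio scaling. IER3 was at 0.191 to 0.521 TPM in MOLM-13 and was not tested in it. BIRC3, a sister of BIRC2, stayed under the filter in both lines. In MONO-MAC-6 it was at 0.402 to 0.536 TPM with DMSO and 0.688 to 0.831 TPM with A9, with a limma adjusted p of 0.293 without the filter.

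The last group holds enzymes, a transporter and other targets, and 2 of its 5 tested members rose and 1 fell in MONO-MAC-6. TNFAIP2 (ENSG00000185215, chr14:103123442-103137439, plus strand) is a TNF-induced protein known for forming membrane protrusions and nanotubes. The MONO-MAC-6 samples were at 14.1, 15.1 and 15.5 TPM with DMSO and 23.3, 31.7 and 27.3 TPM with A9. In MOLM-13 it was at 28.5, 28.6 and 27.4 TPM with DMSO and 29.3, 32.6 and 33.8 TPM with A9. The A9 samples lay above the DMSO samples in both lines. The log2 fold change was 0.83 in MONO-MAC-6 (SE 0.14, 95% interval 0.50 to 1.16, limma adjusted p = 0.0290), which is 0.67 above the median of all genes, and 0.17 in MOLM-13 (SE 0.084, limma adjusted p = 0.710). The difference of 0.66 (SE 0.15, limma adjusted p = 0.0457) lay close to the threshold, and passed in 1 of the 12 leave-one-out fits.

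Among its transcripts in MONO-MAC-6, the protein-coding ones of 4683 and 4175 bases had means of 3.84 and 3.00 TPM with DMSO and 7.91 and 8.50 TPM with A9, with no overlap between the groups. A non-coding transcript of 603 bases was at 8.30, 3.02 and 2.11 TPM with DMSO and 0.832, 3.49 and 2.38 TPM with A9. Those groups overlapped, and the first DMSO sample alone stood high. Transcripts were not tested singly.

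SLC2A6 (ENSG00000160326, chr9:133471095-133479137, minus strand) encodes a lysosomal hexose transporter. In MONO-MAC-6 it was at 2.04, 2.39 and 2.46 TPM with DMSO and 4.23, 3.98 and 4.29 TPM with A9. The groups were separate, at 1.82 times the control mean. The log2 fold change was 0.65 (SE 0.12, 95% interval 0.37 to 0.93, limma adjusted p = 0.0361), or 0.49 above the median of all genes. It understates the change of a gene at this level because 1 TPM was added to each value. Copies on another haplotype held 50.0% of its level. With the primary copy alone it did not pass in MONO-MAC-6 (adjusted p = 0.0592), and the difference between the lines did.

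G0S2 (ENSG00000123689, chr1:209675420-209676388, plus strand) encodes an inhibitor of the fat-cell lipase ATGL and was the one member that fell. In MONO-MAC-6 it was at 38.1, 38.4 and 36.3 TPM with DMSO and 26.1, 25.4 and 25.0 TPM with A9. The spread within each group was narrow, and A9 lay at 0.678 times the control mean. The log2 fold change was -0.54 (SE 0.085, 95% interval -0.75 to -0.34, limma adjusted p = 0.0254), or -0.70 relative to the median of all genes.

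MOLM-13 hardly expressed either gene. G0S2 was listed at 0 in 5 of its 6 samples and at 0.0790 TPM in the second A9 sample, and SLC2A6 was at 0.110 to 0.221 TPM. Their differences between the lines, -0.58 (SE 0.11, limma adjusted p = 0.0228) for G0S2 and 0.74 (SE 0.11, limma adjusted p = 0.00573) for SLC2A6, therefore cannot be told apart from the lack of expression in MOLM-13. That of G0S2 missed the threshold with a pseudocount of 0.1 (adjusted p = 0.209) and passed in 4 of the 12 leave-one-out fits.

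IRF1, a transcription factor shared by the NF-kB and interferon pathways, was at 21.6 TPM with DMSO (SD 1.12, n = 3) and 15.7 TPM with A9 (SD 1.21, n = 3) in MOLM-13. The groups did not overlap, and the log2 fold change was -0.44 (SE 0.097, limma adjusted p = 0.203). MONO-MAC-6 had 23.9 TPM with DMSO and 24.9 TPM with A9, a log2 change of 0.055 whose sign turned with median-ratio scaling. The difference was 0.49 (SE 0.13, limma adjusted p = 0.0724). PLAU, the urokinase that binds PLAUR, was at 54.4 TPM with DMSO (SD 14.5, n = 3) and 73.0 TPM with A9 (SD 2.74, n = 3) in MONO-MAC-6, a log2 change of 0.45 (limma adjusted p = 0.269). Its first DMSO sample there was at 37.7 TPM, beside 63.6 and 62.0 TPM in the others. MMP9, a matrix protease, and PTGS2, the inducible cyclooxygenase, stayed under the filter, at up to 0.675 and 0.649 TPM. In MONO-MAC-6 PTGS2 was at 0.0424, 0.0896 and 0.241 TPM with DMSO and at 0.459, 0.649 and 0.569 TPM with A9. Those groups were separate, but the gene was under the filter, and without a filter its limma adjusted p was 0.104.

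**Figure D4:**
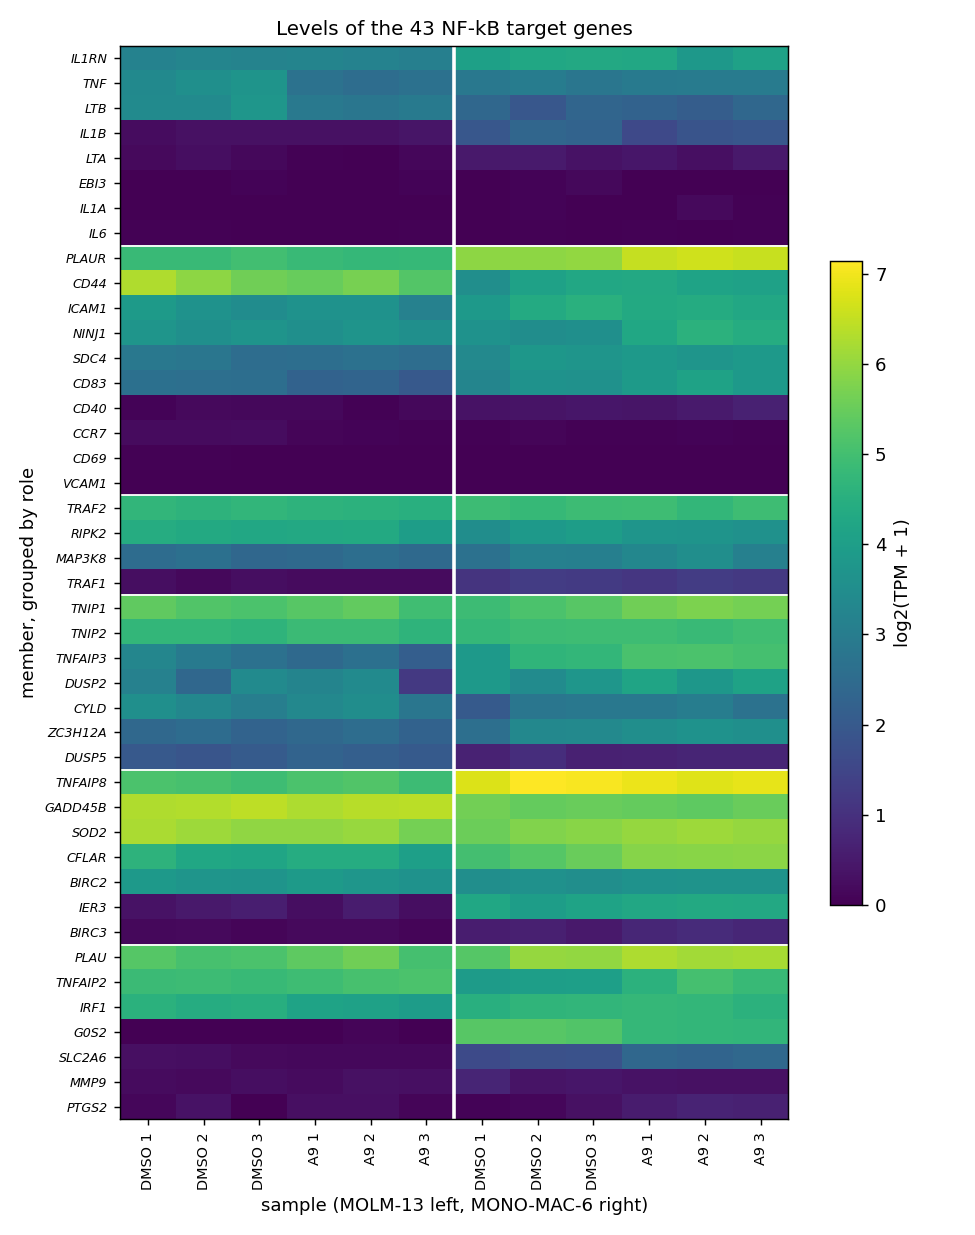
Level of all 43 members as log2(TPM + 1) in the 3 DMSO and 3 A9 samples of MOLM-13 (left) and MONO-MAC-6 (right), grouped by role and ordered within a group by mean level. Dark rows are the members near 0 TPM. IER3 and G0S2 are bright in MONO-MAC-6 alone.

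In all, 11 members were under the filter in both lines, 5 were tested in MONO-MAC-6 alone (IL1B, TRAF1, IER3, G0S2 and SLC2A6) and DUSP5 in MOLM-13 alone. The wider pathway was read from a list of 30 further genes for receptors, adaptors, IKK kinases, NF-kB subunits and IkB proteins. MOLM-13 expressed 27 of these above the filter, MONO-MAC-6 expressed 28, the difference could be tested for 28, and limma called 0 in each comparison. At an unadjusted p under 0.05, 2 were higher and 0 lower in MOLM-13, beside 4.74% and 3.31% of all genes. In MONO-MAC-6, 6 were higher and 0 lower, and 3 of the differences were more positive. The share of all genes at that level was not computed for MONO-MAC-6 or the difference, so those counts stand without a comparison. Above 0 were 24 of the 28 in MONO-MAC-6, beside 70.6% of all genes. In MONO-MAC-6 the median of the list was 0.29, and 20 of 28 lay above the 0.16 median of all genes. NFKBIE, an IkB protein, had log2 fold changes of 0.35 (SE 0.090, limma adjusted p = 0.280) in MOLM-13 and 0.46 (SE 0.12, limma adjusted p = 0.108) in MONO-MAC-6. TLR2 and the TNF receptor TNFRSF1B were at 0.41 (limma adjusted p = 0.125) and 0.59 (limma adjusted p = 0.110) in MONO-MAC-6. NFKBIE, TLR2 and TNFRSF1B had the lowest adjusted p-values of the list in that line, and were picked out after the values were seen. Below 0 there were 4 of the 28, with BCL3 at -0.26 and MYD88 at -0.24. The genes IKBKB (IKK2) and CHUK (IKK1), which encode the kinases named in the design text and the title, had log2 fold changes of -0.26 and -0.052 in MOLM-13 and 0.53 and 0.25 in MONO-MAC-6, none called. A degrader acts on protein, so these mRNA values do not check its action.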

How the data were processed

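The deposited tables hold TPM per Ensembl transcript, each library summing to 1000000. The submitters' processing notes name kallisto, limma and GRCh38; versions and the annotation are not given in the sources used here. TPM hold no counts, so each library's depth is unknown and counting error is not given. Of 207175 transcripts, 177562 (85.7%) matched a symbol in GENCODE 29, other haplotypes included, with 92.5% to 94.1% of each library's TPM. The 29613 others were left out. TPM were summed by symbol, and libraries sharing line, treatment and first number were averaged. limma 3.58.1 in R 4.3.3 (lmFit, eBayes with trend and robust) was fitted to log2(TPM + 1), per line and as an interaction over 12 samples, two-sided, with Benjamini-Hochberg adjustment over all genes that averaged 1 TPM or more in any group. An exact permutation test of 3 against 3 cannot go below p = 0.1. The script was tested on simulated data. Figures used Python 3.11.15, pandas 2.3.3 and matplotlib 3.10.9. Members and lists were chosen with earlier results of these data known. Named with every sample's value were members called in either line or in the difference; with group means, tested members whose groups did not overlap (up to 10 a line); with ranges, members under the filter. IL1B, CD44 and PTGS2 were also given by sample, chosen after their values were seen. NFKBIE, TLR2, TNFRSF1B, BCL3 and MYD88 of the wider list were also named after their values were seen. Alternatives were a pseudocount of 0.1, no filter or a minimum of 5 TPM, a replicate block, repeat libraries averaged by second number or kept apart, median-ratio scaling and leaving out each sample.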

Additional observations from a re-analysis of the deposited data

Results flagged for a closer look

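The A9 effect differed between MONO-MAC-6 and MOLM-13 for 7 members in the limma interaction test over 12 samples, with line and dose changing together. Of all genes tested for the difference, 1.97% were called more positive and 1.11% more negative, and the median difference was 0.19. With median-ratio scaling, only CD83, SLC2A6 and G0S2 of the 7 still passed. With a replicate block, only TNF and PLAUR did. The difference (MONO-MAC-6 minus MOLM-13, log2 scale) was 0.98 for TNF, whose groups were separate in MOLM-13, and 0.72 for PLAUR and 0.90 for NINJ1, which rose in MONO-MAC-6. It was 0.89 for CD83, whose groups were separate in opposite directions in the lines, and 0.66 for TNFAIP2. It was 0.74 for SLC2A6 and -0.58 for G0S2, which MOLM-13 hardly expresses, so that the difference restates the MONO-MAC-6 change.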

How the results depend on the processing

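Of 612 alternative values of the fold changes and differences printed for named members, 601 kept their direction. The others were small values in MONO-MAC-6. With median-ratio scaling the log2 fold change there was -0.063 for TNF, -0.10 for LTB, -0.10 for IRF1 and -0.051 for BIRC2. With each sample's trend on transcript length removed it was -0.022 for TNF, -0.097 for IRF1 and -0.12 for BIRC2, and with the primary assembly alone -0.12 for LTB. Those last settings were chosen after seeing the data. Leaving out 1 sample gave -0.11 to 0.11 for LTB and -0.0050 to 0.10 for IRF1.

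Of all genes, 0.154% were called in MOLM-13, 3.44% in MONO-MAC-6 and 3.08% for the difference. The number of members called was 0, 5 and 7. With the libraries averaged by their second number it was 14, 22 and 24, beside 47.4%, 67.9% and 63.6% of all genes. With each library as its own sample it was 7, 15 and 19, beside 15.3%, 44.0% and 42.2%. These counts treat repeat libraries as replicates. Without a filter the number of members called was 3 in MONO-MAC-6, beside 1.11% of all genes. With median-ratio scaling it was 3 in MONO-MAC-6 and 4 for the difference, beside 4.56% and 3.93%. With a pseudocount of 0.1 it was 5 for the difference, beside 2.26%. With the length trend removed it was 2 in MOLM-13 (TNF and LTB), 7 in MONO-MAC-6 and 10 for the difference, beside 1.64%, 9.44% and 6.18% of all genes. Leaving out 1 sample gave 0 in MOLM-13, 0 to 15 in MONO-MAC-6 and 4 to 6 for the difference. The shares of all genes were then 0.0257% to 0.0768%, 0.515% to 25.2% and 1.55% to 4.08%. The cause of each change was not tested.

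The shared numbers were not taken to pair the samples, since no label says so and not every correlation was above 0.1: the deviations of samples with the same number correlated at 0.51, -0.090 and 0.78 in MOLM-13 and at -0.064, 0.19 and -0.23 in MONO-MAC-6, and 3 of the 6 numbers correlated best with their own. With the number as a replicate block, 1 member was called in MOLM-13 (TNF, limma adjusted p = 0.0276), 0 in MONO-MAC-6 and 2 for the difference (TNF and PLAUR). Of all genes, 0.934%, 0.811% and 1.56% were called with that block.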
